A study of Mus musculus with 18 samples.

Results

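The genes described here encode the proteins of the cytosolic ribosome, and they were taken as every gene whose symbol is Rps, Rpl or Rplp followed by a number and at most 1 lower-case letter. Of the 79 annotated genes that match, 78 were listed in at least 1 of the 3 gene tables of this mouse liver series, out of 21018 genes listed in all; Rpl10l was listed in none. The 78 members comprise 30 proteins of the small subunit, 42 of the large subunit, the 3 stalk proteins Rplp0, Rplp1 and Rplp2, and 3 paralogs, Rps27l, Rpl3l and Rpl39l. Pico listed 76 of them, V4 77 and TruSeq 77, and 76 stood in all 3 tables. Liver RNA came from 12-week old male C57/B6J mice, 3 injected with 20 μg/kg of IL-1β (labelled ILB_9579, ILB_9582 and ILB_9583) and 3 with saline (UNT_9574, UNT_9575 and UNT_9576), 4 h before collection. Values of single libraries are given in that order of mice. RNA of each of the 6 mice was prepared with all 3 kits, which gave 18 libraries of 6 groups of 3. Pico is a stranded total RNA kit used with 1.7 to 2.6 ng, V4 an unstranded poly(A) kit used with 0.8 to 1.3 ng, and TruSeq a stranded poly(A) kit used with 200 ng. Sequencer, read length and run differed with the kit and cannot be told apart from it, and the run of Pico held in the table is not stated.

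The ribosome translates mRNA, and each of its proteins is present in 1 copy apart from the stalk proteins, which recruit translation factors. Hepatocytes secrete most plasma proteins and carry dense arrays of ribosomes on the endoplasmic reticulum. IL-1β is an inflammatory cytokine that starts the acute-phase response, in which the liver changes the set of proteins it makes. Ribosomal protein mRNAs are short and abundant, and they have been copied back into the mammalian genome many times as processed pseudogenes, which lack introns and can match the parent mRNA base for base.

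Library totals were 12348864 to 12858237 counts with TruSeq, 12013453 to 12352473 with V4 and 4024632 to 4134070 with Pico, so a member had about 3 times fewer counts in Pico at the same level. Hepatocyte markers (albumin, transthyretin and others), all 8 being listed in each table, summed to 46874 to 106839 CPM over the 18 libraries. CPM is a gene's count scaled by the library total. In Pico the sum was 48451 to 53047 CPM with IL-1β against 59101 to 68881 CPM with saline. It was 46874 to 51217 against 55927 to 69240 CPM in V4, and 67935 to 74471 against 91884 to 106839 CPM in TruSeq. Neutrophil markers summed to 44.4 to 95.9 CPM with IL-1β and 0.971 to 6.87 CPM with saline, and 7 of 7, 5 of 8 and 7 of 9 rose in Pico, V4 and TruSeq; Mpo was not listed in any table. Of 9 Kupffer cell markers 4, 2 and 5 fell in these kits and Marco rose in TruSeq. Of 8 endothelial markers 4, 2 and 5 fell, with 2 higher in Pico (Lyve1 and Cdh5) and 1 in TruSeq (Lyve1), and of 8 stellate cell markers 2, 1 and 3 fell. Their part in the results for the ribosomal proteins was not tested, and in bulk liver fewer cells of a type and less RNA per cell cannot be told apart.

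Counts at the members' own loci were a small share of every library. The 77 members listed in TruSeq held 0.368% ± 0.0225 (SD, n = 6) of the counts, the 77 in V4 0.262% ± 0.0491 and the 76 in Pico 0.359% ± 0.0132. The Pico shares were 0.36%, 0.357% and 0.362% with IL-1β and 0.355%, 0.34% and 0.381% with saline. In TruSeq they were 0.375%, 0.358% and 0.392% with IL-1β and 0.351%, 0.338% and 0.392% with saline. The V4 shares were 0.322%, 0.254% and 0.245% with IL-1β and 0.211%, 0.217% and 0.321% with saline. In each kit the ranges of the 2 treatments overlapped. The V4 libraries of mice ILB_9579 and UNT_9576, 1 of each treatment, stood above the other 4. Mouse UNT_9576 also had the highest share in Pico and in the saline group of TruSeq. The mitochondrial ribosomal proteins, by contrast, were highest in V4, at 0.379% ± 0.0576, against 0.153% ± 0.0112 with Pico and 0.177% ± 0.0145 with TruSeq.

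**Figure D1:**
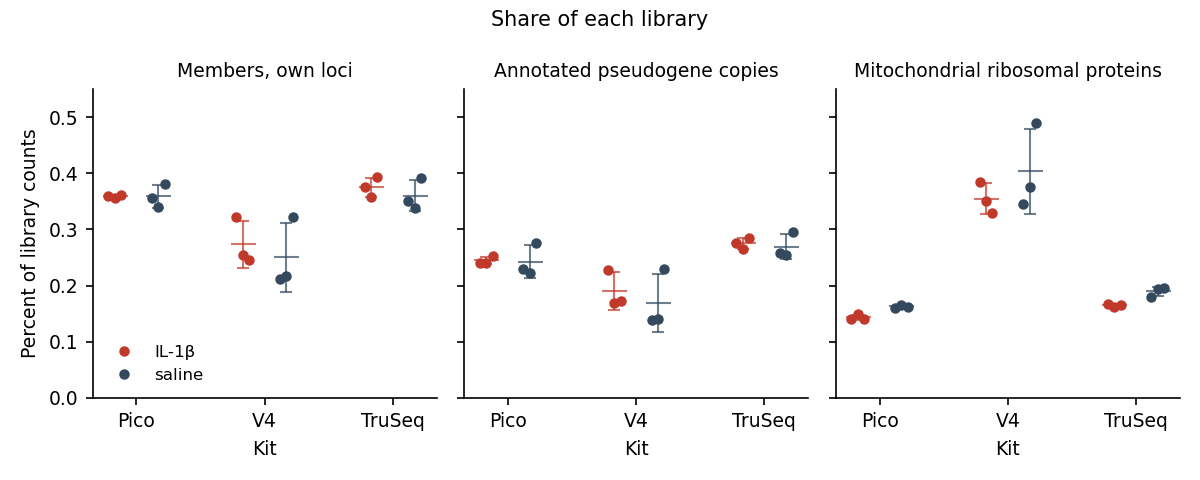
Percent of each library's counts (vertical axis) in the members at their own loci, in annotated pseudogene copies of the members and in the mitochondrial ribosomal proteins, by kit (horizontal axis). Points are libraries (red IL-1β, dark saline), dashes and bars the mean ± SD of 3; members lie lowest in V4, while mitochondrial ribosomal proteins lie highest there.

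Large-subunit proteins held 0.2% ± 0.00995 of the Pico counts, against 0.0979% ± 0.0191 of the V4 and 0.173% ± 0.00905 of the TruSeq counts. Small-subunit proteins held 0.116% ± 0.00382, 0.11% ± 0.0203 and 0.158% ± 0.01. Every Pico and TruSeq library had more counts in the large subunit than in the small, and every V4 library more in the small. The stalk proteins held 0.0402% ± 0.00268, 0.0273% ± 0.00491 and 0.0278% ± 0.00472.

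Levels of single members spanned a wide range. Per kb of mRNA, the highest in TruSeq was Rpl4, a protein near the exit tunnel of the large subunit, at 311 ± 7.67 CPM per kb (SD, n = 6). Rpl8 followed at 236 ± 28.3, Rpl32 at 231 ± 21.1 and Rps9 at 226 ± 29.2 CPM per kb. The lowest library of Rpl4, at 298, lay above the highest of Rpl8, at 270, whereas Rpl8, Rpl32 and Rps9 overlapped each other. The lowest subunit members per kb were Rps12 at 1.79 ± 0.526, Rps27 at 1.8 ± 0.253, Rpl17 at 2.92 ± 0.444, Rps29 at 3.06 ± 0.643 and Rps13 at 3.9 ± 1.07 CPM per kb. The ranges of Rps12 and Rps27 overlapped, as did those of Rpl17, Rps29 and Rps13. Across the 75 subunit and stalk members the order was much alike between kits, with Spearman's rho of 0.9 between V4 and TruSeq, 0.87 between Pico and TruSeq and 0.82 between Pico and V4, as a description over genes that share RNA, length and sequence.

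Several members had hardly any counts. The mean was under 10 counts for 6 of the 76 members listed in Pico, 4 of the 77 of V4 and 2 of the 77 of TruSeq. Rps27, a small-subunit protein with a zinc-binding fold, had 1, 3 and 4 counts in the IL-1β libraries of Pico and 3, 1 and 1 in the saline libraries. In V4 it had 4, 2 and 5 counts with IL-1β and 0, 0 and 6 with saline, and in TruSeq 7, 7 and 7 against 10, 8 and 8. No kit gave it more than 10 counts in any library. Rps12, a protein of the small-subunit head region, had 7, 0 and 5 counts with IL-1β and 0, 2 and 2 with saline in Pico, and at most 2 counts in any V4 library. In TruSeq it had 10, 8 and 17 counts with IL-1β and 12, 14 and 9 with saline. A count of 0 in V4 allows a level of up to 0.25 CPM at this depth, counting error only. Rpl31 was few-count in Pico (mean 5.5) and V4 (mean 9.5) but had a mean of 60.3 counts in TruSeq. Rpl36a (6.5), Rps13 (7.5) and Rps29 (6.67) were under 10 in Pico alone. The paralogs Rpl3l, known from muscle, and Rpl39l, known from testis, were listed with a single count each, in TruSeq and V4, while the parent genes Rpl3 and Rpl39 had means of 286 and 286 counts in TruSeq.

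Uniqueness of sequence was measured as the share of 100-base windows of a member's mRNA that match nowhere else in the mm9 genome. The median over the 75 subunit and stalk members was 47.3%, from 0.407% for Rps27 to 100% for 4 members, among them Rpl22 and Rps3. For 76 mitochondrial ribosomal proteins, encoded by other nuclear genes, the median was 100%. Within the coding sequence alone the median for the cytosolic members was 28.2%. Near full-length copies of the coding sequence (at least 90% identity over at least 80% of its length) numbered 978 in the genome, with a median of 9 per member and up to 79 for Rpl21. The mitochondrial ribosomal proteins had 37, with a median of 0. Among the cytosolic members, 6 had no such copy, among them Rpl8 and Rps3. The transcript with the longest coding sequence was searched, and for Rpl24, Rpl13a and Rps19 shorter coding transcripts are annotated that were not searched. The absence of copies of these 3 and their unique shares are therefore uncertain. All 3 still enter the counts, medians, classes and correlations given here, which were not computed without them.

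Rps12 shows how close the copies are, and 100 bases of its coding sequence (bases 25 to 124 of 399, gene on chromosome 10 at 23504990 to 23507015, minus strand, mm9) are set here against the pseudogene Gm14059 on chromosome 2, which differs in 4 coding bases in all. Capitals mark the bases that differ. Rps12 also has 2 copies that match all of its coding bases, at neither of which a short pseudogene is annotated on the same strand, and 23 copies in total.
Rps12: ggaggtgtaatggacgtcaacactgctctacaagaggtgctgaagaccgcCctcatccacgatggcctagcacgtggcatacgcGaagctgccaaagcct
Gm14059 (chr2:122045753-122045852, plus strand): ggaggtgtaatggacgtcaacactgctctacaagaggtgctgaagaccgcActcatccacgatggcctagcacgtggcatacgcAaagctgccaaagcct

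Rps27 and its expressed paralog Rps27l, on chromosome 9 at 66793893 to 66797323 (plus strand), illustrate the opposite case. Their coding sequences have 255 bases each and are 76.1% identical, with 61 differing bases. The first 100 bases of each follow, with the 25 differences in capitals. Rps27 had 13 near full-length copies elsewhere and 0.407% of windows found once. For Rps27l the longest coding transcript was searched, not the 255-base form shown, and it had no such copy and 100% of windows found once. With 50-base windows that transcript had 82.9% found once.
Rps27: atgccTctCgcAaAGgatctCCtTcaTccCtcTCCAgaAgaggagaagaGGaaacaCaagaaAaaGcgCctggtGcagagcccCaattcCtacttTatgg
Rps27l: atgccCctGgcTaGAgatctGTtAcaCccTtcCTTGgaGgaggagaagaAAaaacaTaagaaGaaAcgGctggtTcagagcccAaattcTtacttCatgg

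Members with little unique sequence had low counted levels in every kit. In TruSeq the 16 members with under 20% of windows found once had a median of 11.2 CPM per kb, the 46 members between 20% and 80% one of 26.0 CPM per kb, and the 13 members above 80% one of 173 CPM per kb. These medians were 15.6, 33.6 and 116 CPM per kb with Pico, and 5.49, 13.5 and 88.1 CPM per kb with V4. The highest TruSeq level among members under 20% was that of Rpl10, at 38.4 CPM per kb. Among the 13 members above 80%, Rpl24 was lowest in TruSeq, at 4.74 CPM per kb, with the transcript of 4999 bases entering both its length and its unique share. Spearman's rho of level and unique share over the 75 members was 0.62 for TruSeq, 0.57 for V4 and 0.51 for Pico, and 0.78, 0.76 and 0.71 with coding windows. These are descriptions over genes that share libraries and annotation.

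**Figure D2:**
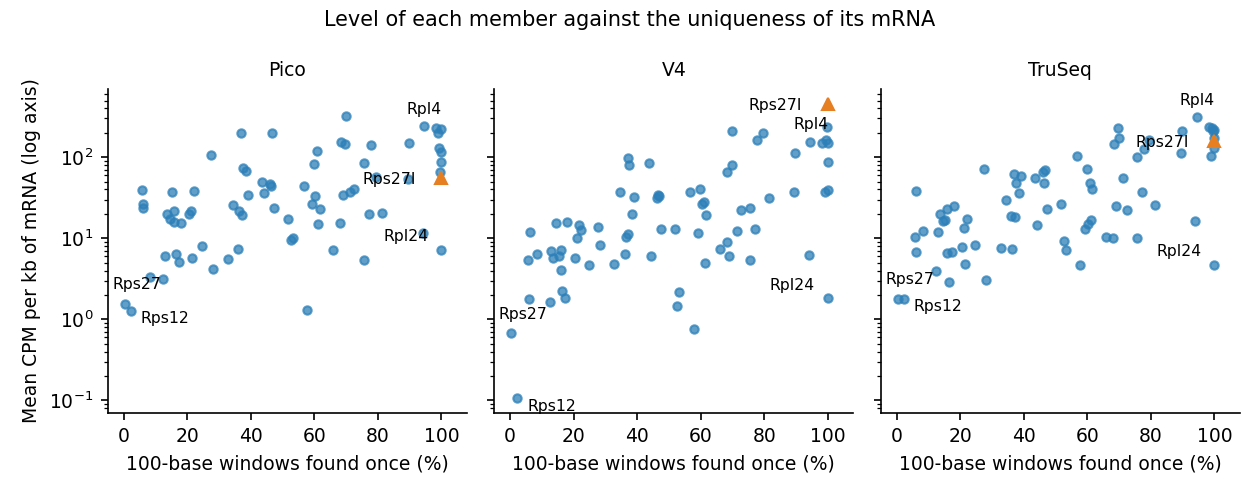
Mean CPM per kb of mRNA over 6 libraries (vertical, log axis) against the percent of 100-base windows of the mRNA found once in the genome (horizontal axis), in each kit. Each circle is 1 of the 75 subunit and stalk members and the triangle is Rps27l; levels are low at the left in every kit, with Rps27 and Rps12 lowest, and Rpl24, plotted for a transcript of 4999 bases, is low at the right.

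The copies themselves carried counts. Of 447 annotated pseudogene copies, 319 were listed in TruSeq, 270 in Pico and 262 in V4. Together they held 0.244% ± 0.0191 (SD, n = 6) of the Pico counts, 0.18% ± 0.0405 of the V4 counts and 0.272% ± 0.0156 of the TruSeq counts. That was 40.4% ± 1.03 of the counts of members and copies together with Pico, 40.5% ± 1.07 with V4 and 42.5% ± 0.363 with TruSeq, and the treatments overlapped in each kit. Of the 64 members with an annotated copy, the copies had more counts than the own locus for 32 in TruSeq, 34 in Pico and 31 in V4. A single copy outnumbered the own locus for 28, 28 and 29 of them. A read from a mature mRNA that matches such a copy and its parent cannot be told apart by sequence, so values at either locus are uncertain for these genes. The authors state that counted reads had to respect annotated exon junctions. How a read that matches both loci was assigned is not given in the sources used here, and that the tables hold uniquely mapped reads only is an assumption.

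Rpl19, a large-subunit protein, is a plain case. Its own locus on chromosome 11 (97888024 to 97891806, plus strand) had a mean of 163 counts in TruSeq, and the pseudogene Rpl19-ps11 on chromosome 8 had 1741. Their coding sequences of 591 bases differ by 1 substitution, G191A, with the base of Rpl19 first and positions counted from the start codon. Bases 141 to 240 are shown with that base in capitals.
Rpl19: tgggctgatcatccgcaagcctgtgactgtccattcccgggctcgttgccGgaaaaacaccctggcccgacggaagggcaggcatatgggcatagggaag
Rpl19-ps11 (chr8:19493076-19493175, plus strand): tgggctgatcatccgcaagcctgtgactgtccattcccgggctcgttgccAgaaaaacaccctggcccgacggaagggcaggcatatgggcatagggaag

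Rps6, the small-subunit protein that S6 kinase phosphorylates, had 115 counts at its own locus and 2252 at the pseudogene Gm13654, which is 100% identical to it over the coding sequence. Rpl32, with 99.3% unique windows, had 1501 counts at its own locus and 0.167 at its only annotated copy. Rps12 and Rps27 stood apart, since their annotated copies were low too, with summed means of 9.83 and 1 counts in TruSeq. Only 18 of the 23 copies of Rps12 and 5 of the 13 of Rps27 were annotated as pseudogenes, and the others were not counted.

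**Figure D3:**
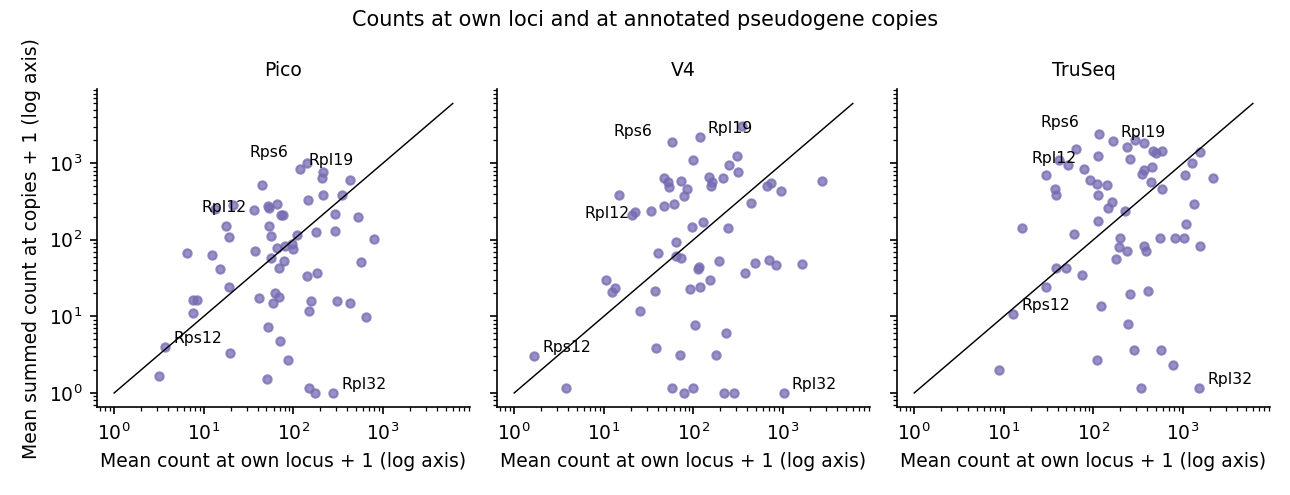
Mean summed count at the annotated pseudogene copies of a member plus 1 (vertical, log axis) against the mean count at its own locus plus 1 (horizontal, log axis) for the 64 members with an annotated copy, in each kit. The line marks equal counts; 32 members of TruSeq, 34 of Pico and 31 of V4 lie above it, and Rps12 is low on both axes.

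The comparison of kits asked whether the same RNA gave the same levels. Most members were lower in V4 than in TruSeq, 54 of 76 against 9 higher, among them 30 lower and 5 higher of the 42 large-subunit proteins and 22 lower and 2 higher of the 30 small-subunit proteins. Of all 17147 genes tested 60.5% were called, 41.6% lower and 18.9% higher. Mitochondrial ribosomal proteins differed in the opposite direction, with 63 of 76 higher and 2 lower in V4. The median log2 ratio was -0.95 over the cytosolic members, 1.10 over the mitochondrial ones and -0.49 over all genes. With TMM factors the medians were -0.64, 1.41 and -0.19, with 46 members lower and 13 (17.1%) higher. Under this scaling 5812 of the 17147 genes were lower and 4267 (24.9%) higher. Tests were limma-voom on library totals, with the treatment as a covariate and Benjamini-Hochberg adjustment over all genes.

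Among members with a mean count of 10 or more in each kit, the highest ratios of V4 to TruSeq were those of Rpl27, Rps27l and Rps29. Rpl27 had 13.1, 9.2 and 8.38 CPM with IL-1β and 5.16, 3.72 and 14.9 CPM with saline in V4, and 1.95 to 4.51 CPM in TruSeq. The log2 ratio was 1.54 ± 0.35 (SE, limma-voom adjusted p = 0.00131). Rps29 had 0.992 to 6.31 CPM in V4 and 0.938 to 1.61 CPM in TruSeq, so its ranges overlapped (log2 ratio 1.17 ± 0.44, limma adjusted p = 0.0317), and it missed the threshold without UNT_9574, ILB_9579, ILB_9582 or ILB_9583. At the other end Rpl5, which carries the 5S rRNA with Rpl11, had 1.9 to 4.11 CPM in V4 and 16.7 to 22.5 CPM in TruSeq, with no overlap (log2 ratio -2.67 ± 0.21, limma adjusted p = 1.56e-08). Rpl28 had 0.0832 to 2.55 CPM in V4 and 2.42 to 4.92 CPM in TruSeq, with overlap (log2 ratio -2.42 ± 0.53).

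Pico and TruSeq differed in both directions, with 26 members higher and 29 lower in Pico of 76, where 49.9% of 17207 genes were called (30.1% higher and 19.8% lower). Large-subunit proteins had 17 higher and 13 lower, small-subunit proteins 7 higher and 15 lower, and the stalk proteins 2 higher. Rpl23a had 12.4 to 19.9 CPM in Pico and 3.36 to 4.51 CPM in TruSeq (log2 ratio 1.95 ± 0.17, limma adjusted p = 1.73e-08). Rps6 had 34.9 ± 4.83 against 9.11 ± 1.1 CPM (log2 ratio 1.93 ± 0.13) and Rps23 10.6 ± 1.46 against 3.22 ± 0.202 CPM (log2 ratio 1.72 ± 0.17). These 3 members have 5.65% to 15.9% of windows found once. Among the members lower in Pico were Rps14, by a log2 ratio of -1.52 ± 0.12, and Rps27l, by -1.51 ± 0.10. Over the 75 members the rho of the ratio and the unique share was -0.2.

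Between Pico and V4, 45 members were higher in Pico and 8 lower, with 67.2% of 16395 genes called (46.3% higher and 20.9% lower). With TMM factors 30 members (39.5%) were higher and 16 lower, as the median of all genes moved from 0.84 to 0.31 on the log2 scale. Under this scaling 5543 of the 16395 genes (33.8%) were higher and 4820 lower. Rpl23a differed most, at 14.9 ± 2.64 CPM in Pico and 1 ± 0.503 CPM in V4 (log2 ratio 3.99 ± 0.37, limma adjusted p = 2.32e-08). Rps6 had a log2 ratio of 2.91 ± 0.21, and at the other end stood Rps27l (-3.0 ± 0.19) and, among others, Rps14 (-1.77 ± 0.20).

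**Figure D4:**
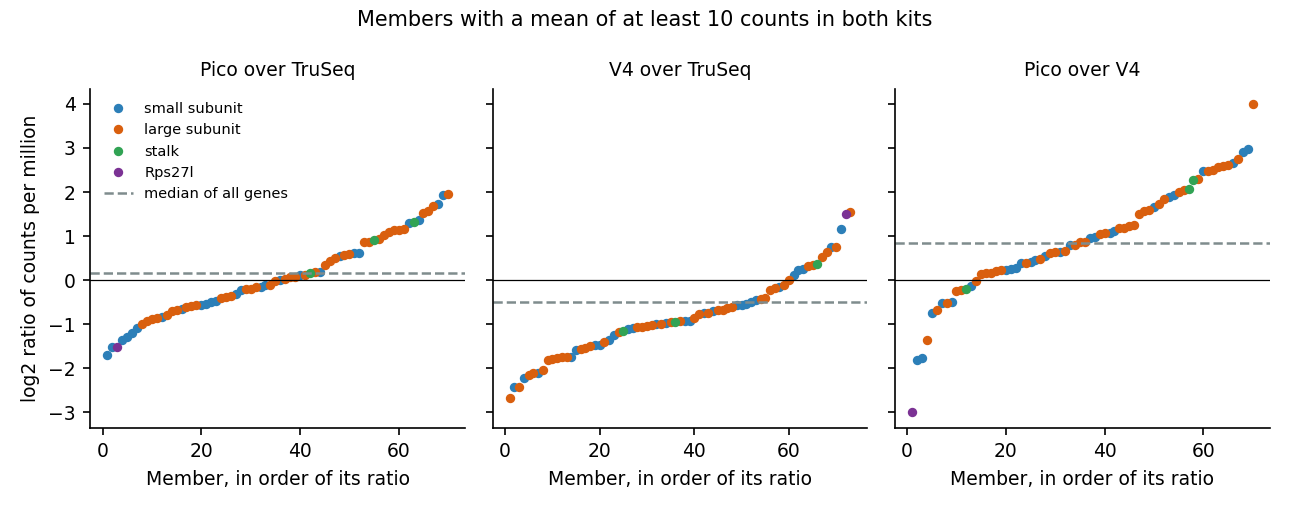
log2 ratio of CPM between 2 kits (vertical axis) for members whose mean count is 10 or more in each kit of a pair, in order of the ratio (horizontal axis). Points are members coloured by subunit, and the dashed line is the median of all genes tested; most members lie below 0 for V4 over TruSeq, and Rps27l is at the bottom for Pico over V4.

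Rps27l, a p53-inducible paralog of Rps27, had the most V4 counts of any member. It had 28.2, 35.8 and 28.7 CPM with IL-1β and 34.3, 33.7 and 32.2 CPM with saline in Pico. In TruSeq it had 91.8, 82.8 and 76.3 CPM with IL-1β and 97.5, 103 and 100.2 CPM with saline. In V4 it had 331, 242 and 208 CPM with IL-1β and 239, 221 and 333 CPM with saline. The 3 kits did not overlap, and the order V4, TruSeq, Pico held in every mouse. In V4 it had a mean of 3186 counts and 456 CPM per kb, where it ranked first; in TruSeq it ranked 11th and in Pico 23rd. Without it the V4 share of the members was 0.236%. With IL-1β it was lower than with saline in all TruSeq libraries, but did not pass the test.

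With library totals, IL-1β changed few members. In Pico 1 of 76 rose and 0 fell, while 17.6% of 18108 genes were called (6.78% higher and 10.8% lower). In V4 0 of 77 were called, while 11.0% of 18051 genes were (3.6% higher and 7.41% lower). In V4 2 members had an unadjusted p under 0.05, and DESeq2 called 1 and edgeR 0. In TruSeq 5 of 77 rose and 0 fell, while 34.1% of 19424 genes were called (12.3% higher and 21.8% lower). The 5 were the large-subunit proteins Rpl12, Rpl10, Rpl10a, Rpl18 and Rpl3, and Rpl12 was also the member that rose in Pico. No small-subunit or stalk protein passed by limma-voom on library totals in any kit. With TMM factors 2, 0 and 13 members rose, and edgeR called 3, 0 and 14 higher. The 13 are 16.9% of the members in TruSeq, beside 16.7% of all genes higher with TMM factors, so the share lay at that of all genes under this scaling and below it with library totals (6.49% against 12.3%).

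The members lay slightly above the other genes. Their median log2 fold change was 0.01, 0.16 and 0.08 for Pico, V4 and TruSeq, and the median of all genes was -0.12, -0.22 and -0.17. TMM factors moved the medians of all genes to 0.02, -0.06 and -0.01. Relative to all genes the members' median was thus higher by 0.13, 0.39 and 0.25, and 59 of 76, 72 of 77 and 68 of 77 members lay above the median of all genes. With 1 mouse left out these differences ranged from 0.09 to 0.18, from 0.24 (without UNT_9574) to 0.67 (without UNT_9576) and from 0.21 to 0.35, so the size in V4 rests on single mice. The median of the members in V4 itself ranged from 0.02 without ILB_9579 to 0.45 without UNT_9576. The groups did not overlap with IL-1β higher for 3 members of Pico, 0 of V4 and 9 of TruSeq, against 12.6%, 9.09% and 17.1% of all genes. They did not overlap with IL-1β lower for 5, 1 and 7, against 18.6%, 18.6% and 27.9%. No member was without overlap in the same direction in all 3 kits.

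**Figure D5:**
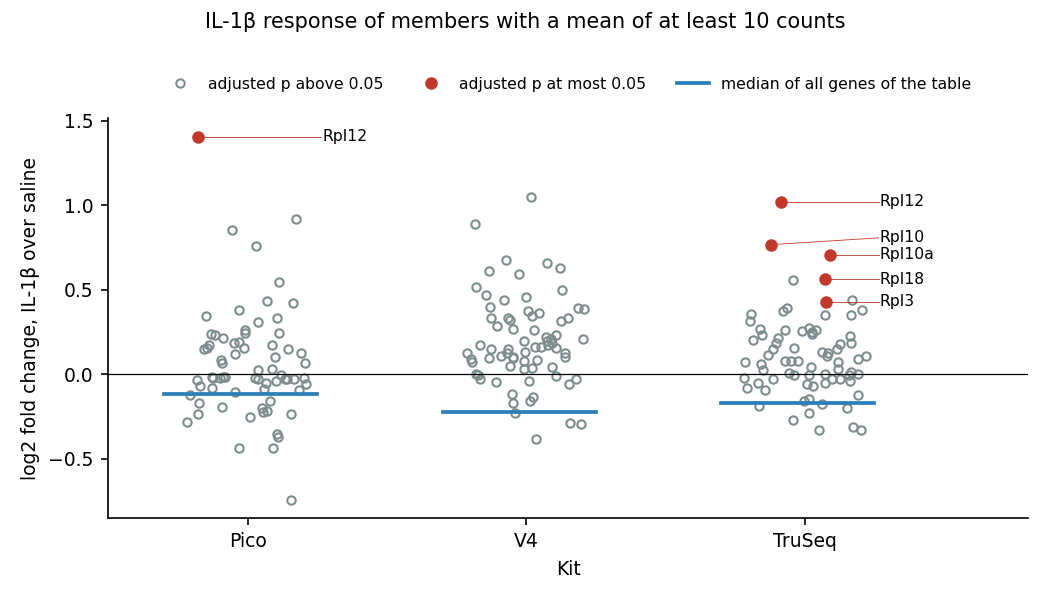
log2 fold change of IL-1β over saline by limma-voom (vertical axis) in each kit (horizontal axis) for members whose mean count is 10 or more. Filled points passed an adjusted p of 0.05 and are named, open points did not, and the blue line is the median of all genes, which lies below most members in every kit.

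Rpl12, a protein at the base of the stalk, had 22.2, 15.9 and 16.6 CPM with IL-1β in Pico and 5.39, 6.31 and 8.95 CPM with saline. In TruSeq it had 14.9, 9.39 and 11.6 CPM with IL-1β and 5.29, 6.09 and 5.99 CPM with saline. All IL-1β libraries were above all saline libraries in these kits, with a log2 fold change of 1.41 ± 0.33 (SE) in Pico (limma-voom adjusted p = 0.00601) and 1.02 ± 0.20 in TruSeq (limma-voom adjusted p = 0.00323). In V4 it had 5.09, 1.82 and 2.9 CPM with IL-1β and 0.999, 2.56 and 2.75 CPM with saline, and the groups overlapped.

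Rpl10, which joins the large subunit last in its assembly, had 39, 36.1 and 40.7 CPM with IL-1β and 20.3, 25.7 and 22.2 CPM with saline in TruSeq (log2 fold change 0.77 ± 0.12, limma-voom adjusted p = 0.000959). In V4 it had 14.5, 8.04 and 14.3 CPM against 5.58, 4.8 and 9.71 CPM, with 1 overlapping pair, and in Pico 23.5, 17.1 and 22 CPM against 18.6, 18.2 and 15.2 CPM. Rpl18 had 23.7, 21.9 and 26.5 CPM against 16, 14.5 and 18.3 CPM in TruSeq (log2 fold change 0.56 ± 0.13, limma-voom adjusted p = 0.009), while its groups overlapped in Pico and V4. Rpl3, at the peptidyl transferase centre, had 26.7, 25.7 and 26.1 CPM against 18.7, 19.3 and 20.3 CPM in TruSeq (log2 fold change 0.43 ± 0.10, limma-voom adjusted p = 0.0105). In Pico Rpl3 had 61.8, 55.2 and 55 CPM against 45.1, 33.3 and 52 CPM, and in V4 its group means were 7.96 ± 0.143 and 8.27 ± 1.1 CPM. Rpl10a had 26.6, 16.8 and 27.3 CPM against 12, 13.8 and 16.8 CPM in TruSeq, where ILB_9582 lay just below UNT_9576 (log2 fold change 0.71 ± 0.21, limma-voom adjusted p = 0.0249). Rpl10a missed the threshold without any single mouse other than ILB_9582, with limma adjusted p from 0.0525 to 0.136.

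The 5 members that rose share much of their coding sequence with copies. None of the coding windows of Rpl12, Rpl10 and Rpl10a is found once in the genome, against 10.7% for Rpl3 and 31.4% for Rpl18. The median over the 75 subunit and stalk members is 28.2%, so Rpl18 lies above it. Members that were not called, such as Rps6 and Rps16, also have no coding window found once. Over the whole mRNA the shares are 53.2%, 6.14%, 15.9%, 15.3% and 34.5% for Rpl12, Rpl10, Rpl10a, Rpl3 and Rpl18. Of Rpl12 the first 100 coding bases are shown, which Gm10275, an annotated pseudogene on chromosome 10 (29418599 to 29419096, minus strand), matches in full, as it does over all 498 coding bases.
Rpl12: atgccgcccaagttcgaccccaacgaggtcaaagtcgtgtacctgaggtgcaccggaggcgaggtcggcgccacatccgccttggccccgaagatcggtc

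Gm10275 had 1196 counts on average in TruSeq, more than the 111 of Rpl12 itself. It had 103, 91.3 and 97.4 CPM with IL-1β and 89.8, 87.3 and 102 CPM with saline, and its log2 fold change was 0.07 ± 0.10 (limma-voom adjusted p = 0.631). In Pico it was 0.09 ± 0.18 and in V4 0.32 ± 0.35. The groups of Gm10275 overlapped in all 3 kits, and whether its fold change differed from that of Rpl12 was not tested. The copies of Rpl10a together had 132 ± 9.62 CPM with IL-1β and 125 ± 9.64 with saline in TruSeq. The pseudogene Gm13436 of Rpl18 had 62.5, 66.8 and 72.2 CPM against 48.2, 44.8 and 61.9 CPM in TruSeq and rose (log2 fold change 0.39 ± 0.13, limma-voom adjusted p = 0.0445). Rpl3-ps1 had 183, 163 and 170 CPM against 142, 135 and 153 CPM, without overlap (log2 fold change 0.26 ± 0.09, limma-voom adjusted p = 0.0547). Of copies whose mean count was 10 or more, 1 of 111 was called in TruSeq, 0 of 86 in Pico and 0 of 85 in V4 by limma-voom.

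The difference in response between kits was tested as an interaction of kit and treatment. For Pico against TruSeq and for V4 against TruSeq 0 of 76 members passed by limma-voom, edgeR or DESeq2. Over all genes limma-voom called 0.0% in each, with 945 and 1090 genes at an unadjusted p under 0.05, of which 1 and 0 were members. A p that misses the threshold does not show that the kits gave the same response.

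Other genes of ribosome production moved more. Of 50 ribosome biogenesis factors, which process rRNA and assemble the subunits in the nucleolus, 35 rose in TruSeq, 22 in Pico and 12 in V4, and 0 fell in any kit by limma-voom. The shares of all genes that rose were 12.3%, 6.78% and 3.6% in these kits. The median log2 fold change of the 50 genes was 0.64, 0.68 and 0.71, and with TMM factors 40, 29 and 19 of them rose. Nop58, a core protein of box C/D snoRNPs, had 134, 109 and 101 CPM with IL-1β and 18, 25.1 and 24.8 CPM with saline in TruSeq, without overlap. Its log2 fold change was 2.34 ± 0.16 in TruSeq, 2.37 ± 0.20 in Pico and 2.28 ± 0.24 in V4. Gar1, of the H/ACA snoRNPs, rose by 1.41 ± 0.21, 1.62 ± 0.49 and 1.79 ± 0.45 on the log2 scale, and Heatr1, needed for early rRNA processing, by 1.23 ± 0.15, 1.2 ± 0.20 and 1.59 ± 0.44.

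Translation factors whose mRNAs share the 5′ pyrimidine tract of ribosomal proteins gave 3 of 21 higher and 3 lower in TruSeq, 2 and 1 in Pico, and 1 and 1 in V4. Eif3a, a subunit of the initiation factor that binds the small subunit, rose in all 3 kits by 0.68 ± 0.10, 0.55 ± 0.10 and 0.66 ± 0.19 on the log2 scale. With TMM factors the counts were 6 and 0, 3 and 0, and 1 and 0. Of 7 ribosomal protein genes that the naming rule leaves out, among them Rpsa, Fau, Gnb2l1, Rpl22l1 and Rpl36al, Rpl7l1 alone was called, in TruSeq (log2 fold change 0.36 ± 0.11), while with TMM factors 2 of the 7 rose in TruSeq and 1 in Pico. Of 76 mitochondrial ribosomal proteins 1 rose and 16 fell in TruSeq, 1 and 5 in Pico, and 1 and 3 in V4. Beside these, 12.3% of all genes rose and 21.8% fell in TruSeq, 6.78% and 10.8% in Pico, and 3.6% and 7.41% in V4. TMM factors gave 5 and 9, 1 and 2, and 2 and 3 of the mitochondrial ribosomal proteins.

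Of 22 growth regulators 6 rose and 3 fell in TruSeq, 4 and 4 in Pico, and 2 and 2 in V4. The shares over all genes were 12.3% higher and 21.8% lower in TruSeq, 6.78% and 10.8% in Pico, and 3.6% and 7.41% in V4. Ddit4, an inhibitor of mTORC1 signalling, rose by 3.57 ± 0.23, 3.44 ± 0.39 and 4.25 ± 0.53 on the log2 scale, from 4.43, 7.81 and 8.32 CPM to 89.6, 65.6 and 83.4 CPM in TruSeq. Max, the partner of Myc, rose by 1.05 ± 0.12, 0.96 ± 0.22 and 1.56 ± 0.31. Deptor, another mTOR inhibitor, fell by 1.13, 0.81 and 0.86 on the log2 scale. Of 8 hepatocyte genes 2 rose and 2 fell in TruSeq, 2 and 5 in Pico, and 1 and 2 in V4. Lymphocyte markers, at 7.45 CPM or less in sum, had 4 lower in TruSeq, 1 higher in Pico and 1 lower in V4, and 0 erythroid markers were called in any kit.

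Ribosomal protein mRNAs are known to begin with a C followed by a run of pyrimidines, the TOP motif, through which mTOR controls their translation. RefSeq starts (GRCm38.p6) were held for 55 of the 75 subunit and stalk members. Within 15 bases to either side of the start, a run of at least 8 C or T bases was found in 45.5% of these members, against 13.9% of 27025 genes and 13% of 69 mitochondrial ribosomal proteins, on the strand of the gene only. A C exactly at the annotated start followed by at least 4 more pyrimidines was found in 13 of the 55, or 23.6%, against 3.01% of all genes. The 30-base windows of 4 of the members that rose are given with the longest run of C or T in capitals; Rpl3 had no entry. The run had 10 bases in Rpl18, 7 in Rpl12 and Rpl10a and 3 in Rpl10, so the members that rose did not share a long run in these windows. A match is a description of the letters alone.
Rpl12 (chr2:32961697-32961726, plus strand): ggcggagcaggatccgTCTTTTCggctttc
Rpl18 (chr7:45718056-45718085, plus strand): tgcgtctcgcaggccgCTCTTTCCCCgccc
Rpl10a (chr17:28328456-28328485, plus strand): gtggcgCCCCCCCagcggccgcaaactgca
Rpl10 (chrX:74270801-74270830, plus strand): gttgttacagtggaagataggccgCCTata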

How the data were processed

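The authors aligned the reads with GSNAP to mm9, removed ribosomal reads, resampled the rest to equal depth within a kit and counted reads per gene. Counted reads had to respect annotated exon junctions. The deposited values are whole-number counts, of the sense strand in Pico and TruSeq and of both strands in V4, and each table was normalized separately. From these counts, limma-voom (limma 3.58.1, R 4.3.3) was fitted with library totals and Benjamini-Hochberg adjustment over all genes, at a threshold of 0.05. Alternatives used TMM factors, edgeR 4.0.16, DESeq2 1.42.0, a filter of 10 counts in 3 libraries and each mouse left out. Fits and window search were tested on simulated data or by brute force; without a filter, kit fits can call genes of very few counts, since depths differ. Levels per kb used 1 annotated mRNA per gene (longest coding sequence). Copies were found with blastn 2.17.0, and they and the windows used the NCBIM37 genome (mm9) with GENCODE annotation. Named genes were the paralogs, the members called per kit, the 5 highest and lowest per kb, the 3 largest and smallest kit ratios, members under 10 counts, and the largest changes of each list called in all 3 kits; copies named with their counts were chosen after their values were seen. Some genes that this rule names are not reported here. The members and lists were chosen with earlier results of these data known. Labels call the libraries of a group separate mice. The mouse number pairs libraries, since RNA of each mouse was split. Over genes with enough counts, deviations from group means correlated positively for the same mouse in each pair of kits. The values were 0.179 to 0.418 for Pico with TruSeq, 0.166 to 0.416 for V4 with TruSeq and 0.0711 to 0.224 for Pico with V4. For different mice they were -0.336 to -0.0282. Deviations within a group cancel out, so positive values for the same mouse bring negative ones for different mice, and the ranges are not independent.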

Additional observations from a re-analysis of the deposited data

How the results depend on the processing

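Counts of members called in the responses depended on the scaling. With TMM factors, edgeR and DESeq2, 2, 3 and 2 members rose in Pico and 13, 14 and 11 in TruSeq, and DESeq2 called 1 in V4; the filter gave 3 members lower in TruSeq. The cause was not tested. Leaving out 1 mouse gave 1 to 2 higher and 0 to 1 lower in Pico, 0 to 2 higher in V4, and 4 to 6 higher and 0 to 1 lower in TruSeq. The members lower came without UNT_9575 in Pico and ILB_9579 in TruSeq; 2 rose in V4 without UNT_9576 and in Pico without ILB_9582. Between kits, DESeq2 gave 14 members higher in V4 than TruSeq, edgeR 28 higher in Pico than V4, and 16, 16 and 15 were lower in Pico than V4 with TMM factors, edgeR and DESeq2. Leaving out 1 mouse gave 5 to 8 higher and 51 to 56 lower in V4 than TruSeq (5 without ILB_9579 or ILB_9582), 24 to 26 and 25 to 27 for Pico against TruSeq, and 39 to 46 and 6 to 9 for Pico against V4. With the mouse as a replicate block the counts were 27 higher and 28 lower for Pico against TruSeq, 10 and 53 for V4 against TruSeq, and 47 and 10 for Pico against V4, and the block called no member in the interactions. Members and copies together held 0.603% in Pico, 0.441% in V4 and 0.64% in TruSeq, an alternative added after seeing the data. Without mitochondrially encoded genes in the total the Pico share was 0.398%; the other denominators moved a share by less than 1 SD. The median unique share was 30.6% with 50-base windows, 59.4% with 125 bases and 28.2% in coding windows. Depth limits members under 10 counts.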
